A study of Rattus norvegicus with 6 samples.

Results

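A set of 10 genes that encode enzymes, and 1 helper protein, of prostaglandin and leukotriene metabolism was followed in rat (Rattus norvegicus) cells labelled as primary cultured microglia. They are Ptgs1, Ptgs2, Ptges, Ptgds, Hpgd, Ptgr1, Alox5, Alox5ap, Ltc4s and Mgst2, that is 10 of the 16876 gene symbols in the deposited count table. The genes were chosen by name and function, and also by their counts in the PSNPs and IR-813 libraries, which were known when the list was made. The differences between the groups are therefore given as a description of the 10 genes, without a test. The groups were 3 libraries of cells kept for 24 h with PSNPs, polystyrene nanoplastics, and 3 libraries of cells kept for 24 h with IR-813, a near-infrared dye. All cells were grown in serum-containing medium in mixed co-culture and the microglia were shaken off and plated before exposure. The labels give no genotype, strain, age, dose or batch, and untreated cells were not analysed here, so "higher" and "lower" always mean with PSNPs relative to IR-813. The deposited tables call the IR-813 columns con. Titles were followed, and it is unknown whether con was meant as another kind of control. The labels do not tie the replicates to separate cultures or animals, and p-values then measure only the spread between these libraries, which may be technical.

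Prostaglandins and leukotrienes are lipid signals made from arachidonic acid after it is released from membranes. Cyclooxygenases turn it into prostaglandin H2, which terminal synthases convert to prostaglandin E2, D2 and others, whereas 5-lipoxygenase, with its activating protein, makes leukotriene A4, the precursor of leukotriene B4 and of the glutathione conjugate leukotriene C4. Both families act on nearby cells through G protein-coupled receptors and are removed by oxidation and reduction, and in brain they are known as products of microglia and other glia during inflammation.

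The libraries held between 19166605 and 22553507 counts, so that 1 count corresponded to between 0.0447 and 0.0531 CPM (counts scaled to a common library size, with TMM factors). PSNPs replicate 3 stood apart from PSNPs replicates 1 and 2, with a correlation of log2 CPM across genes of at most 0.974 against 0.995 between those 2 libraries. Markers of several cell types were present. The summed level of 16 microglia markers was 1443 to 1948 CPM in the IR-813 libraries and 880 to 1251 CPM in the PSNPs libraries, below that of 14 astrocyte markers (8247 to 10700 and 10962 to 12097 CPM) and of 16 oligodendrocyte-lineage markers (7602 to 8802 and 4649 to 5352 CPM). In the quasi-likelihood test of edgeR, adjusted by Benjamini-Hochberg over the 11679 genes tested, 10 of the 16 microglia markers fell and 0 rose (6 did not pass), and 15 of the 16 oligodendrocyte-lineage markers fell and 1 rose. Of the 13 tested astrocyte markers 8 rose and 1 fell, of 13 tested neuron markers 0 rose and 9 fell, of 9 tested markers of endothelium and pericytes 3 rose and 1 fell, and of 7 tested markers of choroid plexus and ependyma 1 rose and 1 fell. Of 5 tested markers of border-associated macrophages 4 fell, their summed level going from 115 to 151 CPM down to 29.5 to 44.7 CPM, and Cd163 was at 0 in every library. Of the 15 meningeal fibroblast markers, Col1a2, Slc22a6 and Ogn were at 0 in every library while Col1a1 had up to 1078 counts, and 3 of the 8 tested fell and 0 rose. Of the 15 markers of neutrophils, T cells and mast cells, 7 were at 0 in every library (S100a9, Elane, Cd3e, Cd3d, Cpa3, Fcer1a and Cma1). Of the 2 that could be tested, Cd4 fell from between 27.6 and 39.6 CPM to between 6.89 and 8.69 CPM, and Kit, at 4.70 to 11.1 CPM over the 6 libraries, did not pass.

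Promoters of the inducible cyclooxygenase gene Ptgs2 and of the prostaglandin E synthase gene Ptges are shown because their products act in sequence in the same pathway while the counts of the 2 genes differed in opposite directions. They are the 250 bases before the annotated start, read 5′ to 3′, from RefSeq on assembly GRCr8, whereas the submitters' processing notes name mRatBN7.2 for the counts. Capitals mark matches to the motifs named after the sequences. The Ptgs2 promoter is on the plus strand at chr13:64713813-64714062 and the Ptges promoter on the minus strand at chr3:34586988-34587237.
Ptgs2: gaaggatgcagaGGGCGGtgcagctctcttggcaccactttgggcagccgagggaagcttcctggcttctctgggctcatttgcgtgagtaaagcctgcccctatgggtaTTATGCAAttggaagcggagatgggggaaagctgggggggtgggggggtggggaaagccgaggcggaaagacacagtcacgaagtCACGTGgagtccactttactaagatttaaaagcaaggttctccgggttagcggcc
Ptges: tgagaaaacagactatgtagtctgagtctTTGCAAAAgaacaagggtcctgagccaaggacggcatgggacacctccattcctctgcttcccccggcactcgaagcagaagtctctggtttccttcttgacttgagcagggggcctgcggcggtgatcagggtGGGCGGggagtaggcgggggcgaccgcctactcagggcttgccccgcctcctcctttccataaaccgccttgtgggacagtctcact
In the table of 33469 promoters, 7 of the 10 genes had an entry, and Ptgr1, Alox5ap and Mgst2 had none. Both strands were searched for the TATA box (TATAAA), the cAMP response core (TGACG), the GC box (GGGCGG), the E-box (CACGTG), the antioxidant response core (TGACNNNGC), a C/EBP core (TTGCNNAA) and an NF-kB motif. Ptgs2 held 1 GC box, 1 C/EBP core at −140 and 1 E-box at −55 (first base, counted from the annotated start), and Ptges held 1 GC box and 1 C/EBP core. The GC box occurs in 30.5% of all promoters of this length, the C/EBP core in 9.22% and the E-box in 5.59%. The antioxidant response core, found in 10.1% of all promoters, matched in 0 of the 7 that were searched, and the NF-kB motif, found in 3.54%, matched in 1, that of Alox5. The 2 printed promoters, chosen for their opposite directions, share the GC box and the C/EBP core. The part of any motif in the counts was not tested.

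Of the 10 genes, 9 had counts that allowed a fit, and genes of the same route differed between the groups in both directions. With PSNPs the libraries held more counts for Ptges, Hpgd, Ptgr1, Alox5 and Mgst2 and fewer for Ptgs2, Ptgds, Alox5ap and Ltc4s, while Ptgs1 was similar in both groups. Every PSNPs library lay above every IR-813 library for 5 of the 10 and below for 4, where this held for 30.0% and 31.4% of all genes tested, 61.4% together. Alox5 and Mgst2 passed the filter on low counts only through the PSNPs libraries, in which they were high, and Ltc4s did not pass it. The median log2 fold change was 1.16 over the 9 fitted genes and 0.59 with Ltc4s at its bound, against −0.01 over all genes tested. Since the 10 genes were chosen with these values known, nothing is read from these shares and medians.

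**Figure D1:**
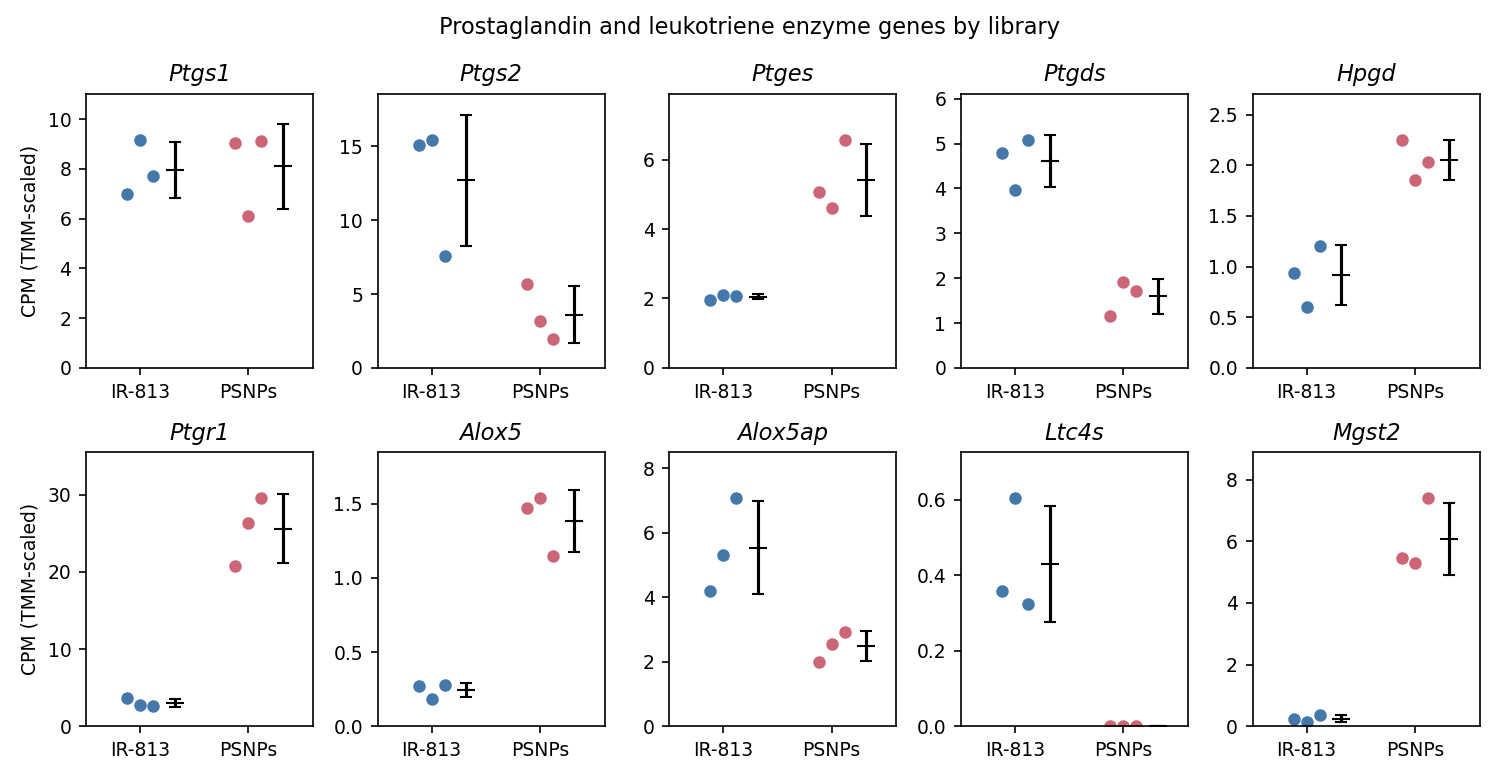
Level of each gene in CPM on TMM-scaled library sizes (vertical axes, each starting at 0 with its own range) in the 3 IR-813 and 3 PSNPs libraries (points, left to right replicates 1 to 3), with the mean and SD beside them. The groups overlap for Ptgs1, and Ltc4s is at 0 in the 3 PSNPs libraries.

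Of the cyclooxygenases, Ptgs1, the constitutive form, had 156, 197 and 167 counts in IR-813 replicates 1 to 3 and 197, 115 and 175 counts in PSNPs replicates 1 to 3. These correspond to 7.96 ± 1.12 and 8.10 ± 1.73 CPM (SD, n = 3 each). The groups overlapped, with the lowest level in a PSNPs library and the highest in an IR-813 library, and the log2 fold change was 0.03 ± 0.20 (estimate ± SE). Its sign turned when single libraries were left out, between −0.06 and 0.20, and with library size as the only scaling (−0.05).

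Ptgs2, the inducible cyclooxygenase, had 337, 332 and 164 counts with IR-813 and 124, 60 and 37 counts with PSNPs. In CPM these were 15.1, 15.5 and 7.59 against 5.70, 3.18 and 1.93. The groups did not overlap, but IR-813 replicate 3 was close to PSNPs replicate 1, and the coefficient of variation was 34.9% with IR-813 and 53.2% with PSNPs. The means were 12.7 ± 4.44 and 3.61 ± 1.92 CPM, a log2 fold change of −1.81 ± 0.43, or 3.50-fold lower. It lay between −2.31 without PSNPs replicate 1 and −1.50 without PSNPs replicate 3.

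Both cyclooxygenases can be set side by side on the unlogged deposited scale, where the value of a gene is its count times a factor of that gene and of the library. The factor of a gene was taken as a division by length, which no source used here states and which was not compared with transcript lengths, so the order of different genes on this scale rests on that assumption. How a ratio of 2 genes differs between libraries does not depend on it. Ptgs2 made up 77.5%, 72.9% and 61.0% of the sum of both in IR-813 replicates 1 to 3 and 50.1%, 45.4% and 25.3% in PSNPs replicates 1 to 3. The share of Ptgs2 was thus lower in each PSNPs library than in any IR-813 library.

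Ptges, which encodes the inducible membrane-bound synthase of prostaglandin E2 that works with Ptgs2, had 44, 45 and 45 counts with IR-813 and 110, 87 and 126 with PSNPs. All 3 PSNPs libraries were above the IR-813 libraries, which lay between 1.97 and 2.10 CPM. The level went from 2.05 ± 0.07 to 5.42 ± 1.03 CPM, a log2 fold change of 1.40 ± 0.18. Ptgds, the lipocalin-type synthase of prostaglandin D2, which in brain is known from oligodendrocytes and the meninges, had 107, 85 and 110 counts with IR-813 and 25, 36 and 33 with PSNPs. All 3 PSNPs libraries were below the IR-813 libraries. The level went from 4.61 ± 0.58 to 1.59 ± 0.40 CPM, a log2 fold change of −1.54 ± 0.22. The oligodendrocyte-lineage markers were lower in the same libraries, with a median log2 fold change of −0.97 over 16, and their part in the difference of Ptgds was not tested. In bulk RNA fewer cells of a type and less RNA per cell cannot be told apart, here and for all genes below.

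The ratio of the 2 terminal synthases, Ptges over Ptgds on the deposited scale, was 0.221, 0.284 and 0.219 in the IR-813 libraries and 2.37, 1.30 and 2.03 in the PSNPs libraries. The groups did not overlap, and the ratio was higher in each PSNPs library.

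Both breakdown enzymes were higher with PSNPs. Hpgd, the dehydrogenase that takes the first step in inactivating prostaglandins, had 21, 13 and 26 counts with IR-813 and 49, 35 and 39 with PSNPs. The groups did not overlap, at 0.916 ± 0.299 and 2.05 ± 0.198 CPM, with a log2 fold change of 1.16 ± 0.26. Ptgr1, a reductase that acts on the product of that step and also inactivates leukotriene B4, had 81, 59 and 56 counts with IR-813 and 453, 497 and 567 with PSNPs. The lowest PSNPs library, at 20.8 CPM, was far above the highest IR-813 library, at 3.62 CPM. Its level went from 2.99 ± 0.56 to 25.6 ± 4.43 CPM, a log2 fold change of 3.09 ± 0.20, and stayed between 2.98 and 3.26 when any library was left out.

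In the leukotriene route, the enzyme and its helper differed in opposite directions. Alox5, which encodes 5-lipoxygenase, had 6, 4 and 6 counts with IR-813 and 32, 29 and 22 with PSNPs. It was a rare transcript in both groups, at 0.244 ± 0.050 and 1.39 ± 0.209 CPM, and the groups did not overlap. The log2 fold change was 2.48 ± 0.28 in the count fit but 0.51 in the deposited log2 values, whose pseudocount of 1 shrinks the differences of rare transcripts. Alox5ap, the 5-lipoxygenase-activating protein that hands arachidonic acid to the enzyme, had 94, 114 and 153 counts with IR-813 and 43, 48 and 56 with PSNPs. All 3 PSNPs libraries were below the IR-813 libraries, at 2.48 ± 0.48 against 5.53 ± 1.45 CPM, with a log2 fold change of −1.16 ± 0.25. The ratio of Alox5ap to Alox5 on the deposited scale was 49.0, 89.4 and 79.7 in the IR-813 libraries and 4.19, 5.16 and 8.04 in the PSNPs libraries, so that it was lower in each PSNPs library than in any IR-813 library.

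Of the 2 genes whose products can join leukotriene A4 to glutathione, Ltc4s had fewer counts with PSNPs and Mgst2 had more. Ltc4s, the dedicated leukotriene C4 synthase of myeloid cells, had 8, 13 and 7 counts with IR-813 and 0 in each PSNPs library. A floor of 3 counts over the PSNPs group was 0.0502 CPM, against 0.428 CPM over the IR-813 group. With the IR-813 level taken as counted, Ltc4s was at least 8.52-fold lower. This bound covers the counting error of the PSNPs zeros only, not that of the 28 IR-813 counts. Mgst2, a microsomal glutathione transferase that can also form leukotriene C4 and is found in many cell types, had 5, 3 and 8 counts with IR-813 and 119, 100 and 142 with PSNPs. The groups were far apart, at 0.245 ± 0.117 and 6.06 ± 1.17 CPM. Its log2 fold change of 4.60 ± 0.31 rests on 16 counts in the IR-813 group, and was 5.01 without IR-813 replicate 3, the library with 8 of them, and 3.54 on the deposited log2 scale.

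**Figure D2:**
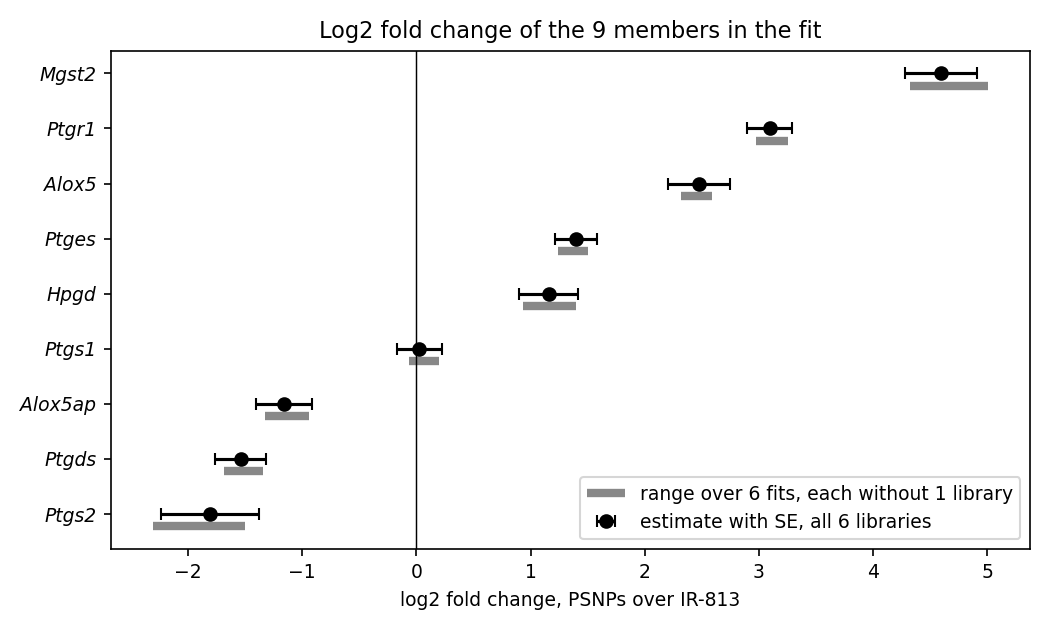
Log2 fold change of PSNPs over IR-813 (horizontal axis) for the 9 genes in the fit, as estimate and SE (points with bars) and as the range over 6 fits that each leave out 1 library (grey). From Ptgs2 at −1.81 to Mgst2 at 4.60, the ranges of 8 genes stay on their side of 0, and that of Ptgs1 spans it.

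Alox5ap and Ltc4s are known from microglia and other macrophages, and a part of the markers of these cells was also lower. Of the 16 microglia markers 10 fell, but Trem2 (0.07), Spi1 (−0.22), Itgam (−0.29), Fcer1g (−0.32), Cd68 (−0.33) and Tyrobp (−0.51) did not pass. Among the markers of border-associated macrophages 4 fell and Lyve1 (−0.02) did not pass. The median log2 fold change was −0.75 over the 16 microglia markers and −1.82 over the 5 tested markers of border-associated macrophages, beside −1.16 for Alox5ap. Ptgs1, also known from microglia, was at 0.03 and Alox5 at 2.48 in the same libraries. The part of these markers in the levels of the 4 genes was not tested. Neutrophils and mast cells are other known sources of Alox5. Of their markers, Elane, S100a9, Cpa3 and Cma1 were at 0 and Mpo at 1 count at most, but Kit, which is also made by other cells, had up to 220 counts. The summed level of the list they belong to, most of it Cd4 and Kit, was 35.3 to 46.6 CPM with IR-813 and 11.9 to 19.03 CPM with PSNPs. Cd4 alone was at 27.6 to 39.6 CPM with IR-813 and 6.89 to 8.69 CPM with PSNPs. It was listed for T cells, whose markers Cd3e and Cd3d were at 0 in every library. The sum is therefore no measure of neutrophils or mast cells, and the part of this list in the level of Alox5 was not tested.

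On the unlogged deposited scale, and so only as far as its gene factors stand for length, the order of the mean levels of the 10 genes differed between the groups. With IR-813 the highest were Ptgds (7.67 ± 0.97), Ptgs2 (7.45 ± 2.61) and Alox5ap (7.02 ± 1.84), which did not differ beyond their spread. They were followed by Ptgr1 (2.995 ± 0.558) and Ptgs1 (2.92 ± 0.41), which did not differ beyond their spread either, and then by Ptges (1.83 ± 0.06). Ltc4s (1.30 ± 0.47), Mgst2 (0.782 ± 0.374) and Hpgd (0.585 ± 0.191) overlapped with their neighbours in this order, and Alox5 (0.0990 ± 0.0204) was the lowest in each IR-813 library.

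With PSNPs the first 3 places went to Ptgr1 (25.9 ± 5.01), Mgst2 (19.7 ± 4.71) and Ptges (4.88 ± 1.05) in each of the 3 libraries. Alox5ap (3.18 ± 0.68), Ptgs1 (2.99 ± 0.66), Ptgds (2.68 ± 0.69) and Ptgs2 (2.11 ± 1.10) did not differ beyond their spread. By their means Hpgd (1.32 ± 0.13) and Alox5 (0.565 ± 0.076) came last among those with reads, but in PSNPs replicate 3 Ptgs2 (1.16) was below Hpgd (1.34).

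**Figure D3:**
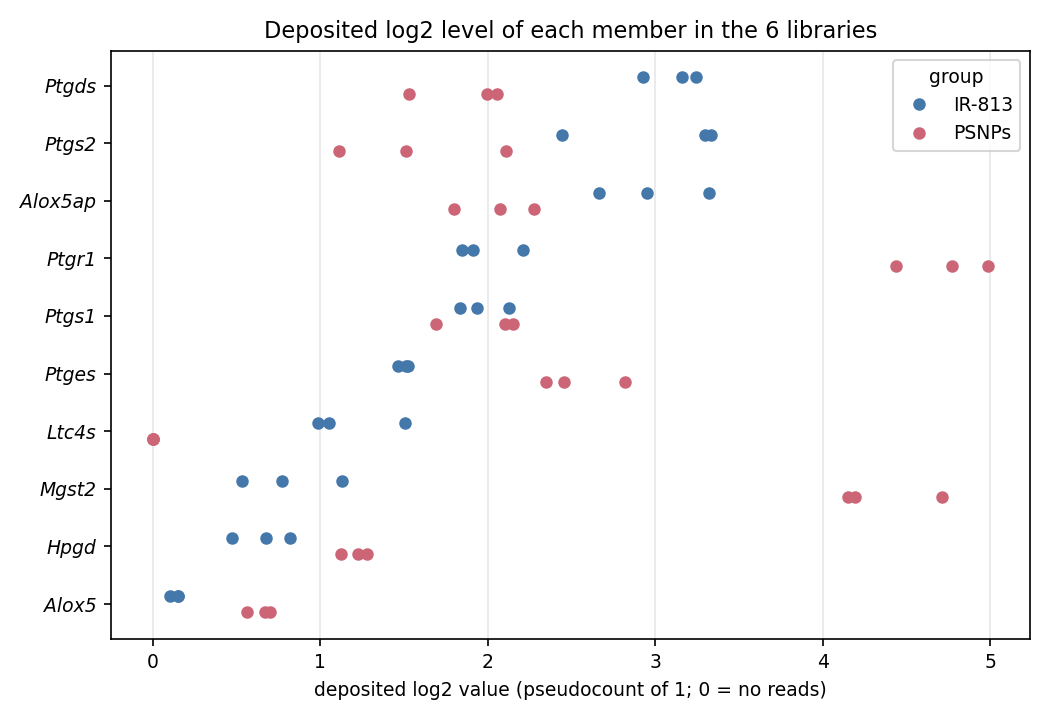
Deposited log2 value of each gene (horizontal axis, log2 of a scaled value plus 1, taken to be per length) in the 3 IR-813 and 3 PSNPs libraries (points), ordered by the mean with IR-813. Ptgr1 and Mgst2 are the 2 highest genes in each PSNPs library.

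By the smallest distance between mean-centred log2 CPM profiles over the 6 libraries, among 9942 other genes of at least 5 CPM in either group, the genes most like Mgst2 were Hsd11b2, which inactivates corticosterone (distance 0.25), Pnoc, the precursor of nociceptin (0.28), and Sfrp5, a Wnt antagonist (0.31). Their log2 fold changes were 4.26, 4.25 and 4.33. With IR-813 they were at 0.731, 6.59 and 0.380 CPM, and Mgst2 was at 0.245 CPM. The profiles used a prior count of 2, which enters the likeness of genes with so few counts. Those most like Ptgs2 were Rarb, a retinoic acid receptor (0.25), Syn3, a synaptic vesicle protein (0.29), and Kif26b, a kinesin family member (0.30), with log2 fold changes of −1.71, −1.99 and −1.75. The distances are in log2 units, and with 6 libraries in 2 groups they describe these libraries only.

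The other genes of the pathway, none of them among the 10, were taken from 8 lists by role with 128 genes, of which 121 were in the table and 83 were tested. In the quasi-likelihood test of edgeR, adjusted by Benjamini-Hochberg over all genes tested, 32 of the 83 rose, 13 fell and 38 did not pass, with a median log2 fold change of 0.23 against −0.01 over all genes tested. Over all genes tested 41.0% passed, 20.9% as higher and 20.1% as lower, against 54.2% of the 83. These shares over all genes are 2439 higher and 2351 lower genes, against 1943 and 2852 with library size as the only scaling. The counts by role ranged from 7 higher and 1 lower of 11 genes listed as other prostanoid synthases to 0 higher and 3 lower of 5 receptors for leukotrienes and related lipids. The former list also holds carbonyl and aldo-keto reductases, which were most of those that rose. The share that passed was below that of all genes for arachidonate release (33.3%), arachidonate storage and supply (38.5%) and prostanoid receptors (22.2%), and between 60.0% and 75.0% for the other 5 lists. Adjusted p-values in the following paragraphs are from that test.

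**Figure D4:**
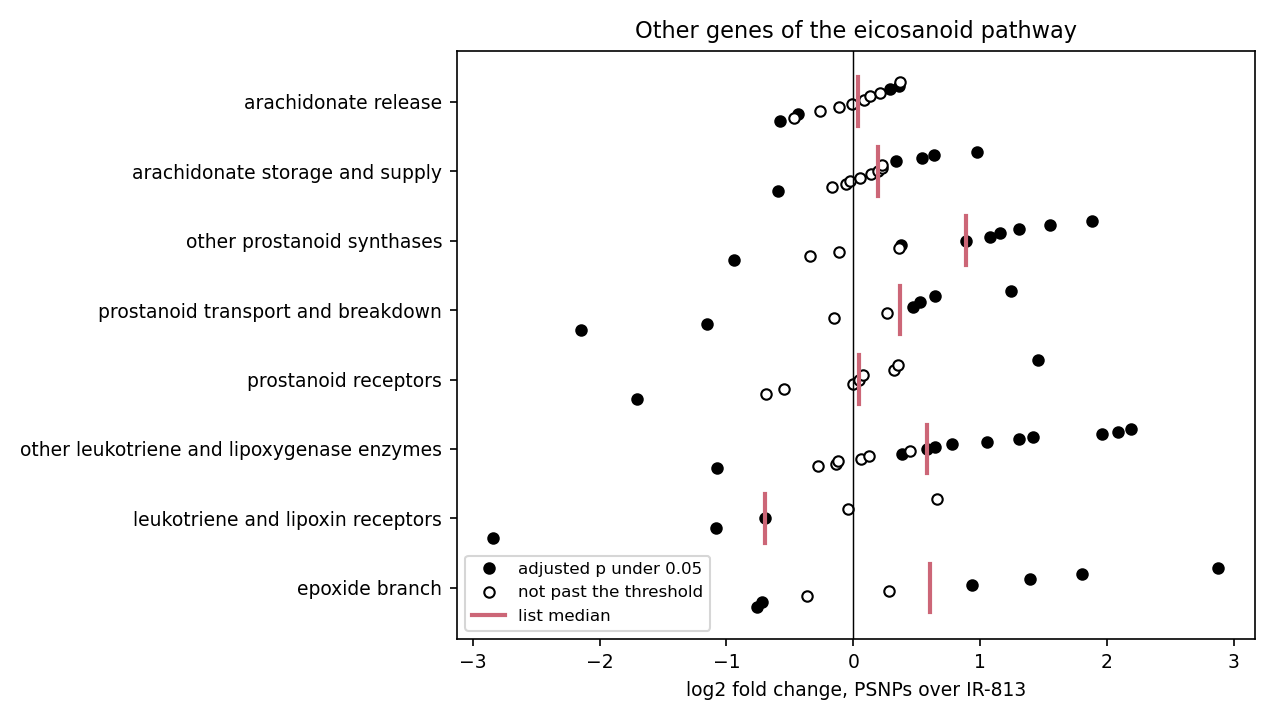
Log2 fold change of PSNPs over IR-813 (horizontal axis) for the 83 tested genes of 8 lists by role (rows), filled where the adjusted p was under 0.05, with the list medians as red lines. The list of other prostanoid synthases, which also holds carbonyl and aldo-keto reductases (median 0.89), lies mostly to the right of 0. Receptors for leukotrienes and related lipids (median −0.70, but −0.03 with no filter on low counts) lie mostly to the left.

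Upstream of the 10, genes of arachidonate release were among those with the smallest differences, where 2 of 12 rose and 2 fell and the median log2 fold change was 0.04. When single libraries were left out, between 0 and 2 of them rose and 1 or 2 fell. Plaa, a phospholipase A2-activating protein, fell from 125 ± 8.44 to 84.1 ± 6.29 CPM (adjusted p = 0.00345). The monoacylglycerol lipase gene Abhd6 rose by 0.36 ± 0.10 and the phospholipase gene Pla2g4b fell by 0.43 ± 0.13 on the log2 scale. Both of these calls were lost with a replicate block and when IR-813 replicate 1, IR-813 replicate 2 or PSNPs replicate 2 was left out. Of 13 genes of arachidonate storage and supply, 4 rose and 1 fell. The desaturase gene Fads1 rose from 479 ± 41.5 to 696 ± 19.8 CPM and the acyl-CoA synthetase gene Acsl6 from 21.9 ± 1.39 to 43.1 ± 5.07 CPM, while its relative Acsl3 fell from 188 ± 7.11 to 124 ± 8.25 CPM. Without PSNPs replicate 3, 7 of this list rose.

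Beside Ptges and Ptgds, the list of other prostanoid synthases, which also holds carbonyl and aldo-keto reductases, had a median of 0.89. The genes with the smallest p in it were reductases. Those that rose were the reductase genes Cbr3, Cbr4, Akr1b1, Akr1b8 and Akr1b10, and Ptges2 and Fam213b. Ptges3, Ptges3l1 and Tbxas1 did not pass, so the median is no measure of prostanoid synthases alone. Akr1b8, an aldo-keto reductase, rose from 21.9 ± 4.88 to 80.4 ± 12.3 CPM, the prostaglandin F synthase gene Akr1b1 from 220 ± 17.4 to 464 ± 62.3 CPM, and the carbonyl reductase gene Cbr4 from 7.08 ± 0.60 to 17.5 ± 0.48 CPM. Each of the 3 had every PSNPs library above every IR-813 library, and the adjusted p-values were 0.000633, 0.000792 and 0.000332. Akr1b genes are similar copies, so the split of reads among them is uncertain. These enzymes also act on aldehydes and other carbonyls. The 1 gene that fell in this list was Hpgds, the haematopoietic synthase of prostaglandin D2 (−0.94 ± 0.20, named after its value was seen), beside −1.54 ± 0.22 for Ptgds. Without PSNPs replicate 3, 2 genes of the list fell.

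Transport and further breakdown went both ways, with 4 higher and 2 lower of 8, and 1 lower without IR-813 replicate 1 or replicate 2. The organic anion carrier gene Slco3a1 rose from 19.2 ± 1.34 to 45.5 ± 4.38 CPM, and Hsd17b4, an enzyme of peroxisomal beta-oxidation, from 149 ± 7.35 to 215 ± 2.96 CPM. Slco2b1, another organic anion carrier, fell from 55.0 ± 12.7 to 12.4 ± 1.15 CPM (adjusted p = 0.000332). Of 9 tested genes in the list of prostanoid receptors, which also holds Ptgfrn and the nuclear receptor gene Pparg, 1 rose and 1 fell. Ptger2, a receptor for prostaglandin E2, had 107, 126 and 131 counts with IR-813 and 50, 26 and 27 with PSNPs, and fell by 1.70 ± 0.24 on the log2 scale (adjusted p = 0.00183). Ptger3, another receptor for prostaglandin E2, had 6, 10 and 10 counts with IR-813 and 26, 29 and 11 with PSNPs. It rose by 1.46 ± 0.43 (adjusted p = 0.0322), a call that was lost without any single library other than PSNPs replicate 3. Ptger3 passed the filter on low counts only through the PSNPs libraries, in which it was high, so little can be read from this call. The thromboxane receptor gene Tbxa2r was at −0.69 ± 0.24 and did not pass (adjusted p = 0.0567), but it passed without PSNPs replicate 3 (−0.87), with library size as the only scaling (−0.77) and in limma on the deposited log2 values (−0.24).

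Of 17 genes listed with other leukotriene and lipoxygenase enzymes, 10 rose and 1 fell. The list also holds Gpx4, Mgst1 and Gstm4, which are among those that rose, and the transporter gene Abcc1, which did not pass. Mgst1, a microsomal glutathione transferase related to Mgst2, had 232, 235 and 255 counts with IR-813 and 976, 790 and 1039 with PSNPs, and rose by 2.09 ± 0.13 on the log2 scale (adjusted p = 0.000116). Ggt5, which cleaves leukotriene C4 to leukotriene D4, rose from 0.626 ± 0.106 to 2.88 ± 0.45 CPM, and Alox12, another arachidonate lipoxygenase, from 5.08 ± 0.30 to 12.5 ± 1.97 CPM. Each had every PSNPs library above every IR-813 library. The gene that fell was Aloxe3, a lipoxygenase best known from skin (−1.07 ± 0.31, named after its value was seen). Aloxe3 passed the filter on low counts only through the IR-813 libraries, in which it was high. The count of fallen genes in this list was 0 under 6 of 13 alternatives, among them leaving out IR-813 replicate 1 or 3 or PSNPs replicate 1 or 2, and 2 without PSNPs replicate 3.

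Of 5 tested receptors for leukotrienes and related lipids, 3 fell. Gpr17, a receptor linked to cysteinyl leukotrienes that also marks oligodendrocyte progenitors, fell from 55.7 ± 8.06 to 7.77 ± 3.04 CPM (adjusted p = 0.000655), beside 15 of 16 oligodendrocyte-lineage markers that fell. Cmklr1, a receptor for chemerin and resolvin E1, fell from 22.5 ± 3.70 to 10.6 ± 2.54 CPM, and the astrocyte receptor gene Gpr37l1 from 185 ± 24.0 to 114 ± 16.4 CPM, beside 8 astrocyte markers of 13 that rose and 1 that fell (median log2 fold change 0.48). In the epoxide branch, where cytochromes P450 form epoxides of arachidonic acid and hydrolases open them, 4 rose and 2 fell of 8, and 1 fell without IR-813 replicate 2. Ephx1, the microsomal epoxide hydrolase, rose from 35.7 ± 4.06 to 263 ± 19.8 CPM (adjusted p = 5.24e-05), the epoxygenase gene Cyp2j4 rose by 1.81 ± 0.18 and the P450 gene Cyp2u1 fell by 0.76 ± 0.12 on the log2 scale.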

How the data were processed

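RNA was measured in 6 libraries, 3 per group, grouped by their titles. The authors deposited whole-number read counts per gene symbol, used as deposited, and 1 file per library of log2 values whose scaling no source used here states. Per the labels' protocols the libraries were poly(A)-selected with a kit not stated to keep strand. The submitters' processing notes name bcl2fastq and mRatBN7.2, and the aligner, counter and annotation were not named there, so reads shared with similar, overlapping or antisense genes are uncertain. With the pseudocount of 1 removed, the deposited log2 values were proportional to the counts, within 0.05 log2 and up to a gene and a library factor, for at least 99.0% of the 7920 genes with 200 counts or more in every library. None of the 10 genes reaches 200 counts in every library. The gene factor was taken as a stand-in for length, which was not tested.

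Counts were filtered with filterByExpr (11679 genes left), scaled by TMM and tested with edgeR 4.0.16 (glmQLFit, glmQLFTest) in R 4.3.3 at a Benjamini-Hochberg adjusted p under 0.05, with treatment as the only term. SE is the size of the log2 fold change over the square root of F. On simulated data for this comparison (11564 genes, 200 of them changed), 93.0% of 2-fold and 100.0% of 4-fold changes were recovered, with 10 false calls. In the real data 41.0% of genes were called, a far larger share than was changed in the simulation. The rates were not split by level, so they do not stand for genes with few counts. Alternatives were limma 3.58.1 on the log2 values, DESeq2 1.42.0, other scalings, filters and prior counts, a replicate block, and leaving out each library.

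The 10 genes and all lists were chosen with earlier results of these data known. Named pathway genes are the 3 with the smallest p in each list. Patterns most like a member are the 3 nearest of the members with the highest and lowest log2 fold change among those fitted, which leaves out Ltc4s. Motifs other than the antioxidant response core were added after the values were seen. RefSeq promoters were matched by gene identifier. SD and SE include the spread between libraries, whereas the floor used for Ltc4s covers counting error only. Reads carry no molecular identifiers. Replicate numbers were not taken as a pairing of the libraries, and whether libraries of the same number share a culture is unknown.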

Additional observations from a re-analysis of the deposited data

How the results depend on the processing

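Of the 126 values of the log2 fold changes of the 9 fitted genes under the alternatives, 118 moved by less than the spread between replicates and 8 by more, 6 of these on the deposited log2 scale. The sign turned for Ptgs1 only. Over all genes the calls ranged from 1339 to 3591 higher and from 1473 to 3478 lower when single libraries were left out, the fewest without IR-813 replicate 2 and the most without PSNPs replicate 3. Leaving out IR-813 replicate 1 gave 1416 and 1571. The replicate block gave 2035 higher and 2124 lower genes over all, while same-numbered libraries deviated together with correlations of only −0.01, 0.01 and 0.12, so the numbers were not taken as a pairing. Under the block the calls of Pla2g4b, Abhd6 and Ptger3 were lost. With library size alone 0 of the arachidonate release genes were called higher. Among the values of the named pathway genes under the alternatives, 292 kept their call, 16 lost it, 3 gained it and 0 changed sign. Of the counts of calls under the alternatives, 246 stayed within 1.5 times of the reported count and 40 did not. Of the list medians 112 moved by less than the spread between replicates and 5 by more: with no filter on low counts the medians were 0.64 for other prostanoid synthases, −0.03 for receptors of leukotrienes and related lipids and 0.29 for the epoxide branch, which was 0.31 on the deposited log2 scale, and that of transport and breakdown was 0.23 without PSNPs replicate 2. Of the mean levels of the 10 genes on the unlogged deposited scale, 14 moved by more than the spread and 6 by less when the pseudocount of 1 was not subtracted. Genes under about 10 counts per library, as Alox5, Mgst2 and Ltc4s with IR-813, are limited by depth.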
